A study of Homo sapiens with 8 samples.

Results

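The genes described here encode the machinery that licenses replication origins, namely ORC1, CDC6 and CDT1, which load the helicase, MCM2, MCM3, MCM4, MCM5, MCM6 and MCM7, which form it, and MCM10, which helps to start it. They were picked out by symbol, with earlier results of these data known. All 10 were found among the 18638 gene models of both deposited count tables. The assay was factory-seq, which reads nascent RNA, and in which nuclei are isolated, DNA is digested and RNA held at sites of transcription is released and sequenced. The 8 libraries came from DLD-1 and HCT116, which are human colorectal cancer cell lines, and fell into 4 groups of 2. All DLD-1 libraries came from DLD-1-mAID-mClover-POLR2A(Tet-OsTIR1) cells, in which the catalytic subunit of RNA polymerase II, RPB1, carries a degron (mAID) that leads to its destruction when auxin is added to cells expressing TIR1. The labels of the DLD-1 controls give no auxin. The other DLD-1 group received auxin for 14 h at 500 µM, after doxycycline for 24 h to induce TIR1. All HCT116 libraries carried the same degron on TOP2A. The HCT116 controls were TOP2A-mAID cells whose labels give no auxin, and the second group was labelled TOP2B-/- TOP2A-mAID. For that second group the treatment field gives 14 h of auxin, which the protocol sets at 500 µM after doxycycline for 24 h, and the names of its count columns also read as auxin, while the titles read as control. The knockout, the auxin and the doxycycline cannot be told apart. Titles call all libraries asynchronous, the protocol mentions sorting of G1 cells where applicable without saying for which samples, and the sources used here do not say whether controls received doxycycline, whether a line is 1 clone or whether the libraries of a group came from separate cultures. P-values therefore measure the spread between these libraries, which may be technical.

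Licensing is the step that prepares DNA for copying. In late mitosis and G1 the origin recognition complex, of which ORC1 is the largest subunit, binds origins and, with CDC6 and CDT1, loads MCM2 to MCM7 as a closed ring around DNA. In S phase the ring is activated and unwinds DNA at the fork, and CDT1 is destroyed or held by geminin (GMNN) so that no origin is licensed again. The genes are known targets of E2F transcription factors and are transcribed mainly around the passage from G1 to S phase, so that their RNA in an asynchronous culture depends both on the share of cells near that passage and on the RNA made per cell. These quantities cannot be told apart in bulk libraries.

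Sequences upstream of the members bear on whether genes that moved together share promoter letters. Windows of 300 bases, from 250 before to 50 after the annotated start, were matched in RefSeq (GRCh38.p14) for 8 members (all but MCM4 and MCM5). The E2F site was searched as TTTGGCGC, TTTCCCGC, TTTCGCGC or TTTGCCGC on both strands, and was present in 6 of 8 members against 3.31% of 35116 windows of the same length over all genes. A shorter core, which is each of these words without its first T and so lies within every such site, was present in 7 of 8 members against 12.97% of windows. In other lists a gene was counted if any of its windows matched. The shares over all genes count single windows, so the measures are unlike. The core was also present in 18 of 23 genes of a list of replication fork genes. In a list of G1/S cyclin and nucleotide genes it was present in 6 of 8. The longer site was present in 10 of 23 and 3 of 8 genes of these lists. The CCAAT box was present in 6 of 8 members against 34.6% of windows, and in 6 of 8 genes of the G1/S list. The cell cycle homology region of G2/M promoters, searched as TTTGAA or TTCGAA, was present in 1 of 8 members, namely MCM6, against 16.4% of windows. It was present in 10 of 13 genes of a list of G2/M genes, which also held a CCAAT box in 10 of 13. MCM10 held none of the E2F words searched in this window, and other forms of the site were not searched. The windows of the 3 loaders and of MCM2 and MCM6 are shown because these genes span the range of responses in DLD-1 cells, with E2F cores and sites in capitals. Each reads 5′ to 3′ on the strand of the gene.
CDC6, chr17:40287629-40287928, plus strand: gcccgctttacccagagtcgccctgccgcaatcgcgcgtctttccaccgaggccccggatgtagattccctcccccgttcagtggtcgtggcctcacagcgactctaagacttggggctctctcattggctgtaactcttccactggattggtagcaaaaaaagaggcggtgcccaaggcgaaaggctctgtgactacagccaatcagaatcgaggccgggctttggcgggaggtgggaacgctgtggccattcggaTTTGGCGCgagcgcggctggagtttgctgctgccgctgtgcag
CDT1, chr16:88803539-88803838, plus strand: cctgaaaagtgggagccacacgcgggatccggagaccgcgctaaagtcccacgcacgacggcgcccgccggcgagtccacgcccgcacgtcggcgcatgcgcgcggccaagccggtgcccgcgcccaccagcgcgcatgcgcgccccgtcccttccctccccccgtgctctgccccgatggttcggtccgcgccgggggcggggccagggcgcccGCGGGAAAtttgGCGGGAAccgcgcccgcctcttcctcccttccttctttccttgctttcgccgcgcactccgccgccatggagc
ORC1, chr1:52404374-52404673, minus strand: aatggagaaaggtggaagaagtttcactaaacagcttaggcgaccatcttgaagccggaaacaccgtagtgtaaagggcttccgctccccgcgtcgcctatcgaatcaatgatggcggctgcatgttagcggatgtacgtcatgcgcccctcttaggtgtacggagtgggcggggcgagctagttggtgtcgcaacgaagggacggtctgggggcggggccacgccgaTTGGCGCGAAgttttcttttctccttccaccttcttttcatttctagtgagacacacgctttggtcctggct
MCM2, chr3:127598161-127598460, plus strand: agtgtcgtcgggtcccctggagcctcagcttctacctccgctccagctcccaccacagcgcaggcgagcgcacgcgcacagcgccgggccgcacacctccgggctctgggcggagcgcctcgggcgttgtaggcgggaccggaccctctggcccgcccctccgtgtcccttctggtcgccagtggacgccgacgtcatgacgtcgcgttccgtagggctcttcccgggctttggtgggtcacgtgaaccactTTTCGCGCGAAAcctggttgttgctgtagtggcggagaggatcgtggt
MCM6, chr2:135876394-135876693, minus strand: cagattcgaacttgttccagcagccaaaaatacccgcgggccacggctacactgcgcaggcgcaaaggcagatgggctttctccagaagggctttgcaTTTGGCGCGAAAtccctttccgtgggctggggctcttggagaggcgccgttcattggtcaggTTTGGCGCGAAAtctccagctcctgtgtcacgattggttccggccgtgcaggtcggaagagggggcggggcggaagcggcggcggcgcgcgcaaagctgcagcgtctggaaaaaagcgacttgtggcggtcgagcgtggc
Of the words searched, CDC6 carried 1 site just after its start, and MCM2 carried a palindrome of them shortly after its start. MCM6 carried a run of overlapping sites in 2 identical copies before its start. ORC1 held the core without the longer site. Of the genes shown, MCM2 and MCM6 both held the full site, and MCM6 but not MCM2 was called lower after auxin, as given further on. Their changes were not compared by a test, and the part of these letters in the changes was not tested. A match is a description of letters and not of binding.

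The gene models gave the members the following positions on GRCh38, introns included. The loaders ORC1 (chromosome 1, 52372829 to 52404471), CDC6 (chromosome 17, 40287894 to 40303161) and CDT1 (chromosome 16, 88803778 to 88809258) spanned 31643, 15268 and 5481 bp. The helicase genes lay on separate chromosomes, MCM2 on chromosome 3 (127598357 to 127622435), MCM3 on chromosome 6 (52264014 to 52284881), MCM4 on chromosome 8 (47960203 to 47978159), MCM5 on chromosome 22 (35400123 to 35424502), MCM6 on chromosome 2 (135839626 to 135876477) and MCM7 on chromosome 7 (100092728 to 100101940). MCM10 (chromosome 10, 13161554 to 13211104) had the longest span of the members, 49551 bp.

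A few members lie close to other genes. MCM7 overlapped AP4M1, on the opposite strand, by 434 bp, and since the sources used here do not state whether counting used strand, reads of that stretch cannot be assigned. Of its span of 9213 bp, 8967 bp were counted. MCM4 and ORC1 began 19 and 75 bp from the opposite-strand genes PRKDC and PRPF38A, without overlap.

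The libraries differed in depth and in background. Total counts were 62626875 and 36906755 in the DLD-1 controls, 14183633 and 10739622 after auxin, and between 32129400 and 36491540 in HCT116. Reads over the genes with the lowest read density in the controls of the other line gave a background density that, extended over all gene models, came to 2.25% and 9.05% of the total in the DLD-1 controls, 39.5% and 59.7% after auxin, and between 0.273% and 3.06% in HCT116. Of the targeted genes, POLR2A had 281 and 179.9 CPM, a read count scaled for the depth of its library, in the DLD-1 controls and 159 and 108 after auxin. TOP2B had 186 and 192 CPM in the HCT116 controls against 135 and 132 for the libraries labelled TOP2B-/-, and TOP2A there had 642, 704, 634 and 634 CPM. Auxin acts on the tagged protein, so these RNA levels do not check depletion. Of 11 colon epithelial markers, 10 exceeded the background by over 2 times in both DLD-1 controls and 7 and 5 did so after auxin, with CDX1 below background in all 8 libraries and HNF4A, LGR5 and CDH17 below 2 times background in all 4 HCT116 libraries. Summed CPM of 10 markers of other cells was 13.9 and 29.0 in the DLD-1 controls and 161 and 155 after auxin, of which PECAM1 made up 97.6 and 72.5, and ranged from 39.5 to 59.1 in HCT116. Of these 10 markers, 3 and 1 exceeded 2 times the background in the DLD-1 controls and 3 and 2 did so after auxin, with PTPRC, CDH5 and COL1A2 below background in all 4 DLD-1 libraries.

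In the DLD-1 and HCT116 controls the helicase genes MCM7, MCM4 and MCM3 had the highest nascent read density of the members. Levels are CPM per kb of counted length, scaled by the TMM method within each cell line. In the DLD-1 controls MCM7 stood first with 12.9 ± 3.06, followed by MCM4 with 9.18 ± 1.496, MCM3 with 6.53 ± 1.19 and CDC6 with 6.50 ± 0.558 CPM per kb (SD, n = 2). MCM2, MCM5 and MCM6 followed with 4.13 ± 1.14, 3.55 ± 0.724 and 3.08 ± 0.546 CPM per kb (SD, n = 2). CDT1, ORC1 and MCM10 came last with 2.35 ± 0.473, 1.33 ± 0.159 and 1.08 ± 0.0590 CPM per kb (SD, n = 2). The libraries of MCM3 overlapped with those of CDC6, those of MCM2 with those of MCM5 and those of MCM5 with those of MCM6, whereas other neighbours in this order did not overlap.

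In the HCT116 controls MCM7 was again first, with 19.4 ± 2.36 CPM per kb, and ORC1 and MCM10 were again last, with 1.94 ± 0.195 and 1.68 ± 0.108 (SD, n = 2). CDT1 had rank 4 among the members there, with 9.16 ± 2.19 CPM per kb, and rank 8 in DLD-1. All neighbours from MCM4 down to MCM5 overlapped in the HCT116 controls, in the order MCM4, MCM3, CDT1, CDC6, MCM2 and MCM5, so their order is not resolved. In the group labelled TOP2B-/- the order was MCM7, MCM3, MCM4, CDC6, MCM5, CDT1, MCM2, MCM6, ORC1 and MCM10, with overlap between MCM5 and CDT1 and between CDT1 and MCM2. After auxin in DLD-1, MCM4 came first with 7.25 ± 1.37 and overlapped with MCM7 at 6.50 ± 1.16 CPM per kb (SD, n = 2). ORC1 was last there, at 0.635 ± 0.0508 CPM per kb (SD, n = 2), next to CDT1 at 0.665 ± 0.0721, with which it overlapped.

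The DLD-1 comparison addresses how transcription of these genes differed after auxin, given to deplete RPB1, whose protein level was not measured here. Relative to the other genes, 7 of 10 members fell after auxin and 0 rose, by 0.99 to 1.82 on the log2 scale. The 3 loaders ORC1, CDC6 and CDT1 fell, as did the helicase genes MCM3, MCM5, MCM6 and MCM7, whereas MCM2, MCM4 and MCM10 did not pass the test. Of all 17625 genes tested, 35.0% were called lower, 32.2% higher and 67.3% in either direction, by edgeR's quasi-likelihood test at an adjusted p of 0.05. The median log2 fold change of the 10 members was -1.08, against -0.06 over all genes tested. Without auxin replicate 1 or without auxin replicate 2, CDC6 was the only member called, against 13.2% and 16.9% of all genes called lower.

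**Figure D1:**
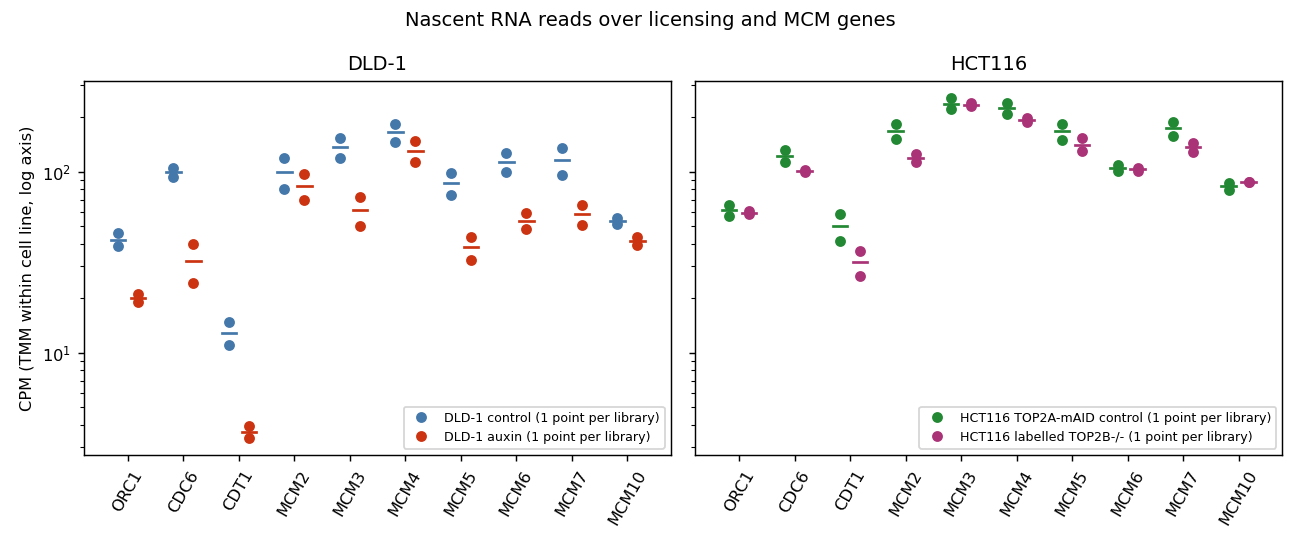
CPM of each member on a log axis in DLD-1 (left) and HCT116 (right), with 1 point per library and a line at the mean of the 2 libraries of a group. In DLD-1 both auxin points lie below both control points for 8 of 10 members, and in HCT116 the groups lie close together for most members.

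Among the loaders, CDT1, which brings the helicase to the origin, had 14.7 and 11.03 CPM in the DLD-1 controls and 3.37 and 3.92 CPM after auxin. Both auxin libraries were well below both controls, although they held only 58 and 54 reads. Its log2 fold change was -1.82 (SE 0.33, edgeR adjusted p = 0.014). CDC6, the ATPase that binds with ORC and CDT1, had 105 and 93.2 CPM in the controls and 39.8 and 24.3 CPM after auxin. The groups did not overlap, and the log2 fold change was -1.63 (SE 0.29, edgeR adjusted p = 0.012). ORC1 had 45.8 and 38.7 CPM in the controls and 21.2 and 18.97 CPM after auxin, again without overlap. Its log2 fold change was -1.07 (SE 0.20, edgeR adjusted p = 0.015). Of all genes tested, 8.54% had a lower log2 fold change than CDT1, 12.02% a lower one than CDC6 and 26.0% a lower one than ORC1.

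The helicase genes differed in whether they were called, and no test compared them with each other. MCM3 had 154 and 119 CPM in the DLD-1 controls and 72.9 and 50.1 CPM after auxin, a log2 fold change of -1.15 (SE 0.26, edgeR adjusted p = 0.022). MCM5, its neighbour in the ring, had 99.1 and 74.1 CPM in the controls and 43.8 and 32.7 CPM after auxin, a log2 fold change of -1.18 (SE 0.25, edgeR adjusted p = 0.019). In both genes every auxin library was below every control. MCM6 had 128 and 99.3 CPM in the controls and 59.1 and 48.1 CPM after auxin, a log2 fold change of -1.08 (SE 0.21, edgeR adjusted p = 0.016). MCM7 had 135 and 96.5 CPM in the controls and 65.6 and 51.0 CPM after auxin, a log2 fold change of -0.99 (SE 0.25, edgeR adjusted p = 0.027). Groups did not overlap for MCM6 or MCM7 either.

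MCM2, whose amino terminus also binds histones, had 119 and 80.0 CPM in the controls and 96.9 and 69.5 CPM after auxin, so that auxin replicate 1 lay between the controls. Its log2 fold change was -0.26 (SE 0.28, edgeR adjusted p = 0.444). MCM4 had 184 and 146 CPM in the controls and 148 and 113 CPM after auxin, with overlap between the groups. Its log2 fold change was -0.34 (SE 0.22, edgeR adjusted p = 0.219). MCM10, which joins the helicase when it is activated, had 55.6 and 51.5 CPM in the controls and 43.4 and 39.3 CPM after auxin. Its groups did not overlap, yet the log2 fold change of -0.37 (SE 0.17) did not pass the test (edgeR adjusted p = 0.103). Across the 10 members, both auxin libraries lay below both controls in 8, against 46.3% of all genes tested.

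**Figure D2:**
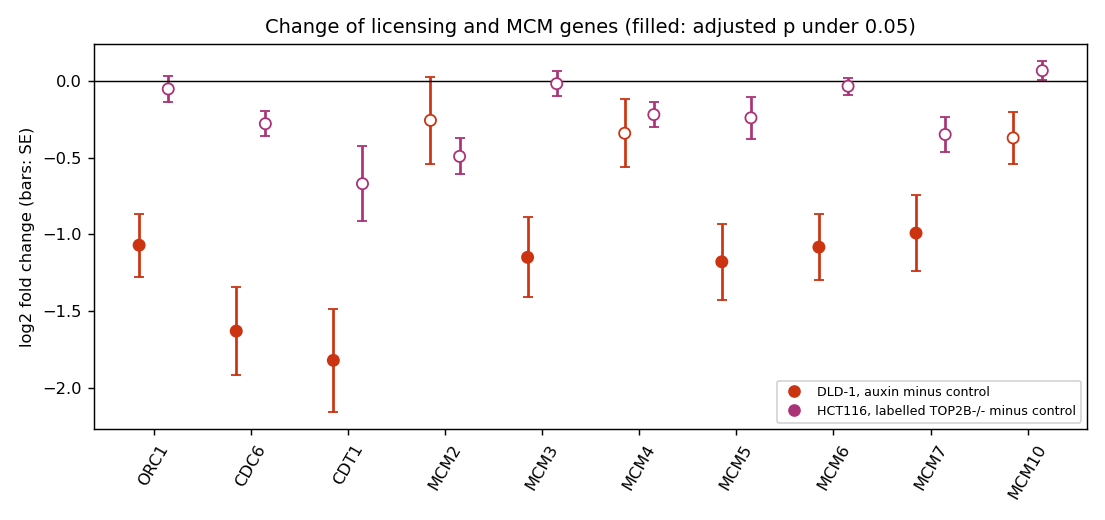
Log2 fold change of each member in DLD-1 (auxin minus control) and HCT116 (group labelled TOP2B-/- minus control), with bars of 1 SE and filled points for an edgeR adjusted p under 0.05. In DLD-1 7 points are filled, all below 0, and in HCT116 no point is filled.

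The size of these falls depended on how libraries were scaled and on background. With library totals in place of TMM, the median of all genes moved from -0.06 to 0.57. That of the members moved from -1.08 to -0.44. The members lay 1.01 below all genes on the log2 scale under either scaling. Rescaling moves every gene by about the same amount, so this gap was bound to stay and is no test of the falls. Among settings that kept all libraries, the members' median minus that of all genes ran from -1.12 without a count filter to 0.09 with background-subtracted counts. It was -0.57 when only genes averaging 5 CPM or more were kept. Under library totals, CDC6 (-0.997) and CDT1 (-1.17) were the only members called, against 19.2% of all genes called lower. MCM2, MCM4 and MCM10 were then above 0. Background made up 0.573% and 2.78% of the reads over the members in the DLD-1 controls and 11.3% and 21.3% after auxin. Its share was highest for the members with the lowest density of reads. After auxin, ORC1 held 2.36 and 1.47 times the reads that background density alone would give it, CDT1 2.16 and 1.76 times and MCM10 3.08 and 1.95 times. MCM4 held 28.9 and 15.4 times and MCM7 25.7 and 13.9 times.

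After subtraction of this background, CDT1 (-1.496), ORC1 (-0.87) and CDC6 (-0.61) were called lower and MCM2 (0.93) and MCM4 (0.92) were called higher on the log2 scale. MCM3 (-0.02), MCM5 (-0.21), MCM6 (-0.13), MCM7 (0.27) and MCM10 (0.24) were not called. The fit took the background as known, so these calls carry no error of its estimate. Only 31 and 23 reads of CDT1 and 211 and 83 of ORC1 remained in the auxin libraries. The median of the members was then -0.07, against -0.17 over all genes, with 32.0% of genes called lower, 27.7% higher and 59.7% in either direction. Of the 8 alternative settings that kept all libraries, CDC6 and CDT1 were called lower in 8 and ORC1 in 7. MCM3, MCM5 and MCM6 were called lower in 6 each, MCM7 in 5 and MCM2, MCM4 and MCM10 in 0. Between 19.2% and 37.0% of all genes were called lower in these settings.

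**Figure D3:**
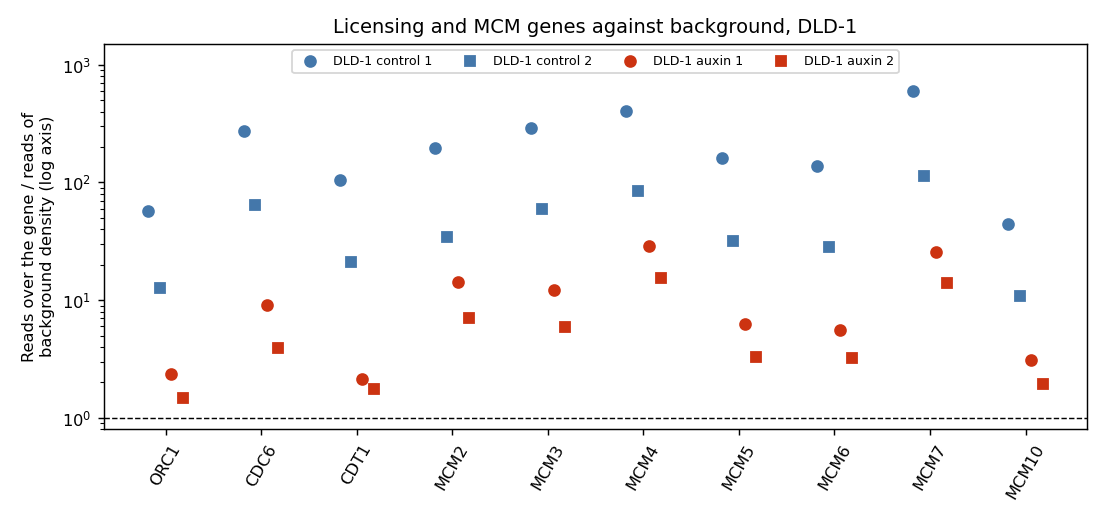
Reads over each member divided by the reads that background density would give over its counted length, on a log axis, with 1 point per DLD-1 library and a dashed line at 1. Every auxin point lies below both control points of the same gene, and ORC1, CDT1 and MCM10 come closest to the line. The auxin libraries had lower totals and more background (4.90 and 5.61 reads per kb, against 1.23 and 2.92 in the controls). These lower the ratio for any gene, so it does not measure a change of the members.

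Ratios between members within a library do not depend on scaling. They were formed after the values were seen and are given as descriptions without a test. Per 100 reads over MCM2 to MCM7, the loaders ORC1, CDC6 and CDT1 together had 20.2 and 23.2 reads in the DLD-1 controls and 13.3 and 12.95 after auxin. With background subtracted they had 20.2 and 22.9, and 11.05 and 8.30. In HCT116 the same ratio was 21.4 and 22.0 for the controls against 20.7 and 20.6 for the group labelled TOP2B-/-. In DLD-1 the auxin libraries were lower than the controls in both forms of the ratio, and in HCT116 the spread over all 4 libraries was small. CDC6 held most of the loader reads in DLD-1, with 5113 of 8051 in control 1 and 686 of 1110 in auxin replicate 1. MCM2 and MCM4, which had the smallest falls of MCM2 to MCM7, are part of the denominator. ORC1 changed by -1.07 on the log2 scale, against -0.99 to -1.18 for MCM3, MCM5, MCM6 and MCM7. With background subtracted ORC1 changed by -0.87, against -0.21 to 0.27 for those genes.

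Within the helicase, MCM2 and MCM4 together took 37.0% and 36.8% of the reads over MCM2 to MCM7 in the DLD-1 controls and 50.3% and 50.1% after auxin. With background subtracted these shares were 37.0% and 36.9%, and 51.9% and 53.3%. MCM4 alone went from 22.5% and 23.7% to 30.4% and 31.0%, and MCM2 from 14.5% and 13.01% to 19.9% and 19.1%. MCM5 went from 12.1% and 12.06% to 9.02% and 8.98%. In HCT116, MCM2 and MCM4 took 36.3% and 36.5% of these reads for the controls against 33.6% and 33.6% for the libraries labelled TOP2B-/-, while MCM3 took 22.3% and 22.0% against 24.9% and 25.9%. MCM2 and MCM4 had the smallest falls of these genes in DLD-1 and were grouped after the values were seen. Their higher joint share after auxin follows from that choice and was not tested.

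**Figure D4:**
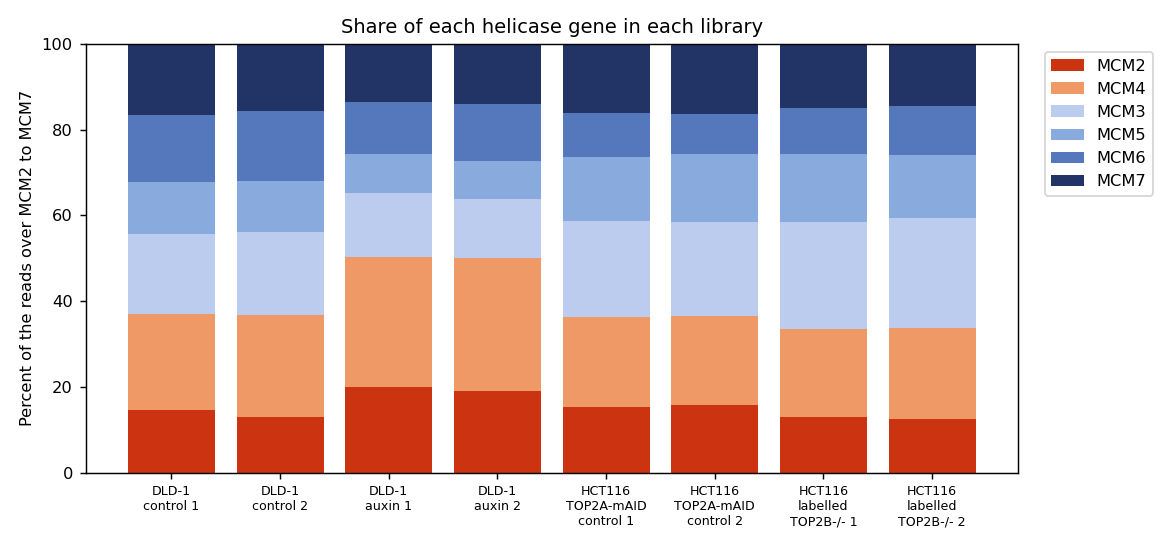
Stacked bars of the percent of reads over MCM2 to MCM7 that fell on each gene, with 1 bar per library and the same 6 genes in each. MCM2 and MCM4 (red and orange) reach 50.3% and 50.1% in the auxin libraries of DLD-1 and between 33.6% and 37.0% in the other libraries.

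The HCT116 comparison addresses how the same genes differed in TOP2B-/- TOP2A-mAID cells from TOP2A-mAID controls. No member was called by edgeR, against 1.66% of 15273 genes called lower, 1.75% higher and 3.41% in either direction. An unadjusted edgeR p under 0.05 was reached by 3 of 10 members (MCM2, CDC6 and MCM7), and by 3492 of the 15273 genes. DESeq2 called 5 members lower, namely CDC6, CDT1, MCM2, MCM4 and MCM7, among 11.9% of all genes called lower by it. That share counts 3257 of 15273 genes to which DESeq2 gave no adjusted p and which could not be called. The log2 fold changes were below 0 in 9 of 10 members, with a median of -0.23 against 0.03 over all genes tested.

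CDT1 had the lowest value among the members in HCT116. It had 41.7 and 58.7 CPM in the controls and 36.6 and 26.5 CPM in the group labelled TOP2B-/-, a log2 fold change of -0.67 (SE 0.25, edgeR adjusted p = 0.223). MCM2 had 151 and 183 CPM in the controls and 125 and 113 CPM in the other group, a log2 fold change of -0.49 (SE 0.12, edgeR adjusted p = 0.120). Both libraries of that group were below both controls for these genes, as they were for CDC6, MCM4 and MCM7. This held for 5 of 10 members, against 27.6% of all genes tested. MCM7 had 159 and 189 CPM against 144 and 129, a log2 fold change of -0.35 (SE 0.11, edgeR adjusted p = 0.183). CDC6 had 114 and 131 CPM against 102 and 100.1, a log2 fold change of -0.28 (SE 0.08, edgeR adjusted p = 0.164). MCM4 had 209.6 and 240.5 CPM against 198 and 189, a log2 fold change of -0.22 (SE 0.08, edgeR adjusted p = 0.228).

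For the remaining members in HCT116, the libraries labelled TOP2B-/- were not both below both controls. MCM5 had 150.1 and 184 CPM in the controls and 153 and 129.99 CPM in the group labelled TOP2B-/-, a log2 fold change of -0.24 (SE 0.14). MCM3 had 221 and 256 CPM against 239 and 232, MCM6 had 102 and 109 CPM against 102 and 105, and ORC1 had 57.1 and 65.9 CPM against 60.5 and 58.2. The log2 fold changes of these 3 genes were -0.02 (SE 0.08), -0.03 (SE 0.06) and -0.05 (SE 0.08), and their groups overlapped. MCM10 had 79.7 and 87.2 CPM against 87.6 and 87.3, a log2 fold change of 0.07 (SE 0.06). Its libraries labelled TOP2B-/- both lay just above both controls. The HCT116 controls themselves differed, since the median member was 0.21 lower on the log2 scale in control 1 than in control 2, and all 10 members were lower. Against control 1 the median member changed by -0.04 and -0.17 in the libraries labelled TOP2B-/-, and against control 2 by -0.28 and -0.37. With background-subtracted counts edgeR called MCM2 and MCM7 lower, against 8.71% of genes called lower and 17.5% in either direction. Without control replicate 1, edgeR called 4 members lower, namely CDC6, MCM2, MCM4 and MCM7, against 8.32% of all genes.

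Whether the change of a member differed between the comparisons was tested as the DLD-1 change minus the HCT116 change over all 8 libraries. CDC6 was called, with a difference of -1.14 on the log2 scale (SE 0.34, edgeR adjusted p = 0.039), against 23.4% of 17800 genes called lower and 36.6% in either direction. The other 9 members were not called, although 8 of 10 differences were below 0. ORC1 (-0.81, SE 0.26), MCM6 (-0.84, SE 0.29) and MCM3 (-0.93, SE 0.34) had edgeR adjusted p-values of 0.053, 0.063 and 0.075. MCM2 (0.43, SE 0.40) and MCM4 (0.08, SE 0.30) were above 0. With background-subtracted counts ORC1 was called lower and MCM2 (1.27) and MCM4 (0.99) were called higher, against 32.4% of all genes lower and 19.9% higher. The call of CDC6 was lost with library totals, with background-subtracted counts, and without DLD-1 control replicate 1, DLD-1 auxin replicate 2, HCT116 control replicate 1, or either library labelled TOP2B-/-. Without DLD-1 control replicate 2, 8 members were called lower, all but MCM2 and MCM4, against 32.5% of all genes. The cell line, the tagged protein and the treatment all change between the comparisons and cannot be told apart.

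Other genes of the pathway were read from lists. In DLD-1, 35.0% of all genes tested were called lower and 32.2% higher. With background subtracted these shares were 32.0% and 27.7%. The rest of the licensing machinery, 11 genes that include ORC2 to ORC6, geminin, MCM8, MCM9 and the helicase-binding MCMBP, fell in 9 of 11 genes in DLD-1 and rose in 0, with a median log2 fold change of -1.19. GMNN, the inhibitor of CDT1, went from a mean of 26.8 to 5.76 CPM (-2.21, SE 0.26, edgeR adjusted p = 0.0053), and MCMBP from 92.7 to 24.0 CPM (-1.95, SE 0.17, edgeR adjusted p = 0.0042). With background subtracted 6 fell and 1 rose, with a median of -0.98. Of 14 genes that fire origins, 9 fell and 0 rose, with a median of -0.92, led by the kinase CDC7 (-1.93) and by TOPBP1 (-1.88). With background subtracted 6 of these fell and 3 rose, with a median of -0.38. Of 27 fork genes 13 fell and 1 rose, with a median of -0.60. The polymerase delta subunit POLD4 (-1.83) and the flap endonuclease FEN1 (-1.69) led the falls, and RPA3, a subunit of the single-strand binding protein, rose (1.42), although it was lower with background subtracted (-1.95). With background subtracted 4 fork genes fell and 10 rose, with a median of 0.06.

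Regulators upstream and downstream of licensing gave mixed counts in DLD-1. Of 18 genes of the E2F and RB families and their partners, 13 fell and 1 rose, with a median of -0.99. E2F6 (-2.02) and E2F8 (-1.79), which repress E2F targets, led the falls, and MYBL2 rose (0.57). With background subtracted 9 of these fell and 1 rose, with a median of -0.72. Of 12 G1/S cyclin and nucleotide genes, 4 fell and 1 rose, against 35.0% and 32.2% of all genes tested, with a median of -0.23 over the list. CCNE2 (-1.73) and CCNA2 (-1.49), cyclins of S phase entry and progression, led the falls. With background subtracted 0 genes of this list fell and 8 rose, against 32.0% and 27.7% of all genes tested. Of 10 genes that act on the turnover of licensing factors or restrain CDKs, 6 fell and 1 rose, with a median of -0.79, namely CUL4A (-1.63) and CDKN1B (-1.55) among the falls and CDKN1A (1.26) as the rise. With background subtracted 3 of these fell and 4 rose, with a median of -0.19. Genes of G2/M phase fell in 15 of 15, with a median of -1.87, led by CCNB1 (-2.71) and PLK1 (-2.47), and 13 of 15 fell with background subtracted. The part of cell cycle phase in the values of the members was not tested.

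**Figure D5:**
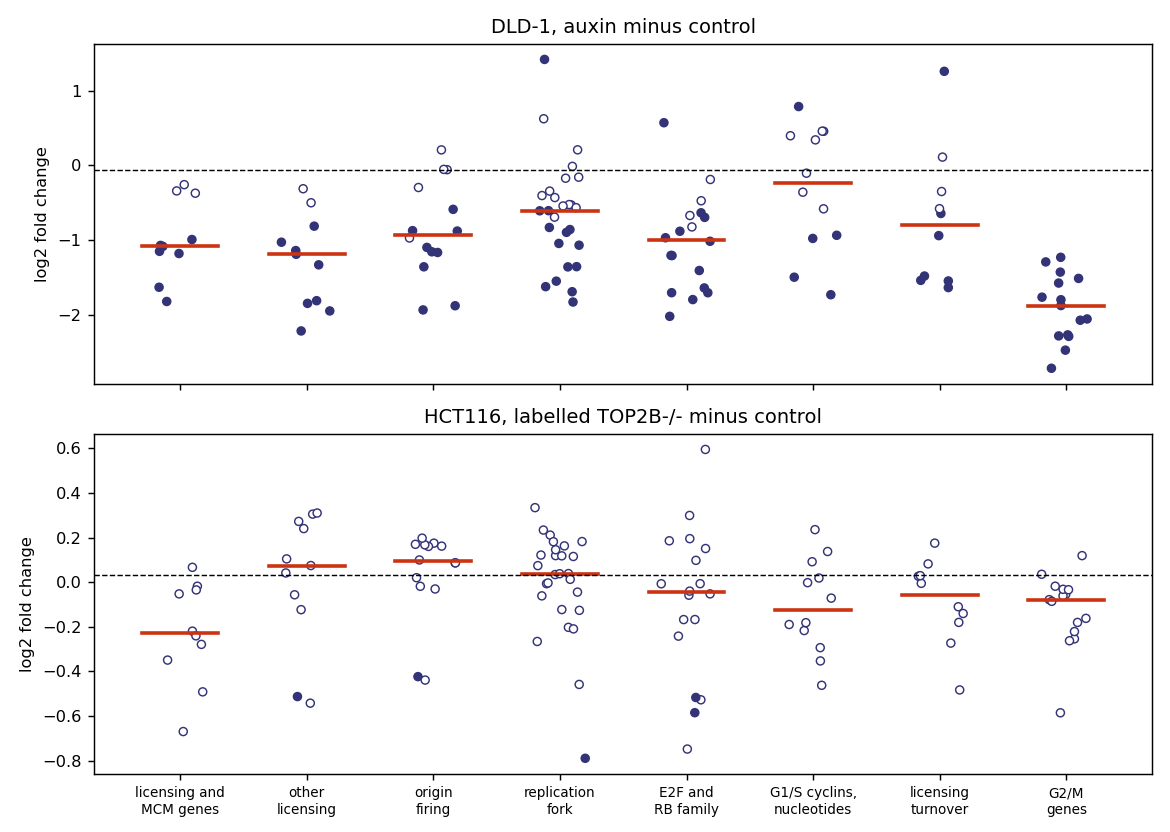
Log2 fold change of every tested gene of the members' list and of 7 other lists, in DLD-1 (top) and HCT116 (bottom), with filled points for an edgeR adjusted p under 0.05, a red line at the median of each list and a dashed line at the median of all genes. In DLD-1 the medians run from -0.23 for G1/S cyclin and nucleotide genes to -1.87 for G2/M genes, and in HCT116 they run from -0.23 for the members to 0.09 for origin firing.

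In HCT116, 5 genes of these other lists were called, all lower, by edgeR. They were MCM8 (-0.51), the GINS subunit GINS1 (-0.42), the sliding clamp PCNA (-0.79), MYBL2 (-0.58) and RBL1 (-0.52). All 5 lie on chromosome 20, where the median log2 fold change of 405 tested genes was -0.56, against 0.04 on other chromosomes. No member lies on chromosome 20. The medians of the other licensing, origin firing and fork lists were 0.07, 0.09 and 0.04.

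The genes outside all lists whose profile was most like that of the members were found by the root mean square difference from the members' median log2 CPM, centred within each cell line, over 8 libraries and 15205 genes. They were ITGA5 (0.030), VDAC3 (0.033), ZNF768 (0.035), DNMT1 (0.040) and AKR1A1 (0.041). Among the members MCM5 lay closest to their own median (0.065) and CDT1 farthest (0.354), with MCM2 next (0.311).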

How the data were processed

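Raw counts, as the authors deposited them in 1 table per cell line, cover 18638 RefSeq gene models (GRCh38) with their introns. The submitters' processing notes name STAR, DESeq2 and hg38, with no role, version or strand setting. In 1443 models fewer bases were counted than the gene spans. The authors' tables of called genes, which hold fold changes, p-values and a normalized signal, were not used. The 4 libraries of a cell line were fitted together by edgeR 4.0.16 (R 4.3.3) and its quasi-likelihood test, with filterByExpr, TMM scaling, two-sided p-values and Benjamini-Hochberg adjustment over all genes tested at 0.05, with 2 residual degrees of freedom. All 10 members passed the filter in each fit. An exact permutation test of 2 against 2 libraries cannot go below p = 0.333 and was not used. The difference between cell lines was a contrast over all 8 libraries. CPM values used TMM within a line and are not on 1 scale across lines. Standard errors came from the quasi-likelihood F statistic.

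Background density was the median count per counted base over silent genes, namely, on each chromosome but Y, those 20% of models over a minimum of 5000 bp that had the fewest reads per kb in control libraries from the other line. For background-subtracted counts, the reads this density gives over the counted bases of a model were taken off. Alternatives were other scalings and count filters, DESeq2 1.42.0, background-subtracted counts, the replicate number as a block, a fit over all 8 libraries and leaving out each replicate, and a crossed block in HCT116 was added after seeing the data. A library left alone in its group by leaving out a replicate was taken to vary as the remaining group does. Scripts were tested on simulated data. The members and gene lists were chosen with earlier results of these data known. The genes named were all members, the targeted genes, up to 2 called genes per direction, list and comparison with the greatest change, and the 5 genes nearest in profile. A gene that this rule names is not reported here. The DLD-1 and HCT116 comparisons share no control libraries. Totals per library are given above and intervals or errors cover these libraries only. The paper supplied describes another experiment and was used for style alone.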

Additional observations from a re-analysis of the deposited data

How the results depend on the processing

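Over the named genes and their alternatives, 584 of 731 values kept their direction and their side of the threshold, 84 were no longer called, 32 were newly called and 31 changed sign. The cause of the changes below was not tested.

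In DLD-1, without a replicate 2393 to 12732 genes, 1 to 7 members and 18 to 52 genes of the other replication lists were called, against 11855, 7 and 58, and the lowest counts came without auxin replicate 1. Library totals alone gave 2 members, 38 genes of the other lists and a members' median of -0.44. With background-subtracted counts that median was -0.075, and it was -0.69 with a mean CPM of at least 5. Signs changed for MCM2 (0.38 with library totals, 0.12 with a mean CPM of at least 5, 0.93 with background-subtracted counts, -0.51 to 0.054 without a replicate, the highest without control replicate 1), MCM4 (0.30, 0.043 and 0.92 with the first 3), MCM10 (0.27, 0.019 and 0.24) and, with background-subtracted counts, MCM7 (0.27), POLR2A (0.42) and RPA3 (-1.95).

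In HCT116, 521 genes were called, against 3295 with DESeq2, 1221 with a mean CPM of at least 5, 2371 with background-subtracted counts, 5 in the fit over all 8 libraries and 0 to 2519 without a replicate, where 2519 came without control replicate 1 and 0 without either library labelled TOP2B-/-. Members called were 5 with DESeq2, 1 with a mean CPM of at least 5, 2 with background-subtracted counts and 0 to 4 without a replicate. Other replication genes called were 5, against 9 with library totals, 26 with DESeq2, 12 with a mean CPM of at least 5, 3 without a count filter, 19 with background-subtracted counts, 0 in the fit over all 8 libraries and 0 to 16 without a replicate. Signs changed for MCM3 (0.0070 with library totals, 0.028 with background-subtracted counts, -0.12 to 0.023 without a replicate), MCM6 (0.0061 with background-subtracted counts), MCM10 (-0.0021 to 0.069 without a replicate, the lowest without control replicate 1) and POLR2A (0.014 with library totals, 0.032 with background-subtracted counts, -0.16 to 0.094 without a replicate).

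For the difference of the changes, 6518 genes were called, against 2519 to 8528 without a replicate. Members called were 0 with library totals, 2 with DESeq2, 3 with a mean CPM of at least 5, 3 with background-subtracted counts and 0 to 8 without a replicate, all of them lower except MCM2 and MCM4 with background-subtracted counts. Signs changed for MCM2 (-0.045 to 0.90 without a replicate, the lowest without DLD-1 control replicate 2), MCM4 (-0.013 without a count filter, -0.30 to 0.41 without a replicate), MCM7 (0.46 with background-subtracted counts) and MCM10 (0.18 with library totals, 0.024 with a mean CPM of at least 5, 0.036 with background-subtracted counts).

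The replicate numbers gave 2 pairs per line, which the labels tie to no shared culture or day. Deviations of same-numbered libraries correlated at 0.56 across genes in DLD-1 and at -0.82 in HCT116. With the replicate block 12963 genes and 7 members were called in DLD-1, and 0 genes, 0 members and 0 other replication genes in HCT116. For the difference it called 5452 genes and 3 members. The crossed replicate block, added after seeing the data, called 1808 genes, 3 members and 16 other replication genes in HCT116.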
